A study of Homo sapiens with 4 samples.

Results

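Antisense long noncoding RNA genes were examined after knockdown of STAU1 in SAS, a human line from a squamous carcinoma of the tongue. The genes were chosen by name and by abundance. A gene was taken when it was annotated as noncoding, when its symbol ended in -AS1, -AS2 or -AS3, and when its counts summed over the 4 libraries reached at least 40. Of the 67008 genes in the count table, 121 were members, while 1676 other noncoding genes with such a symbol lay below the minimum and 1146 of these had no count. The minimum selects on the same counts that are compared below, so the abundance of the members is a description and not a result.

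The study compared 2 libraries of Ctrl cells, which carried an shRNA against luciferase (shLuc), with 2 libraries of shSTAU1 cells, which carried an shRNA against STAU1. All 4 libraries came from virus-infected cells that the labels give as wild type, grown in DMEM with serum, so viral delivery of an shRNA is shared by both groups. The sample labels also name the mouse fibroblast line C3H 10T1/2, but the organism is given as human and the growth protocol gives SAS cells. Nothing in the labels says whether the libraries of a group came from separate cultures, and p-values then measure only the spread between these libraries, which may be technical. A single shRNA against STAU1 is named, so effects of its sequence on other genes and effects of STAU1 loss cannot be told apart.

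Antisense long noncoding RNAs are transcribed from the strand opposite to another gene, their sense partner, and are often named after it. Some of them share exonic bases with the partner and could base-pair with its mRNA, others start next to the partner's promoter and run away from it, and many are kept at low levels by nuclear RNA turnover. STAU1 (Staufen 1) is an RNA-binding protein that recognises double-stranded RNA, takes part in mRNA transport and translation, and can start the decay of bound mRNAs. Duplexes between a long noncoding RNA and an mRNA are among the structures it is known to bind. No duplex or binding was measured in these libraries.

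The members lay on 21 chromosomes, with 16 on chromosome 1 and 12 on chromosome 19. GENCODE 29 types 94 of them as antisense and 19 as processed transcripts. By that annotation, 106 members shared exonic bases with their named partner and 12 overlapped the partner's gene body without sharing an exonic base. Of the members without any overlap, 2 started within 5000 bases of the partner's start and 1 started farther away. Opposite-strand coding sequence was covered by exons of 71.07% of the members (86 of 121), compared with 51.32% of the 530 antisense genes with 1 to 39 counts and 30.72% of the 1146 without a count. The libraries were made by hybrid capture of coding exons, and RNA that carries no targeted exon is recovered less well by such a kit. The median exonic length fell along the same groups, from 3412 to 1918 and 904 bases, and a longer gene can gather more counts and more overlap. The parts of the capture and of gene length in this gradient were not tested.

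The overlap is shown for 4 pairs that the results below return to (MUC5B-AS1 was chosen after its values were seen), as stretches of an antisense exon (GENCODE 29 transcripts on GRCh38, 5′ to 3′ along the antisense strand). Bases opposite to coding sequence of the partner are in capitals and the bases beyond it are in lower case.
FLG-AS1 exon over FLG, chr1:152314638-152314787, plus strand: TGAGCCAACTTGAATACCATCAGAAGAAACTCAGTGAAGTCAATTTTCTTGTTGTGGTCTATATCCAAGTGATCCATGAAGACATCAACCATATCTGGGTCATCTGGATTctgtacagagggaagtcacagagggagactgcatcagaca
TTN-AS1 exon over TTN, chr2:178538730-178538879, plus strand: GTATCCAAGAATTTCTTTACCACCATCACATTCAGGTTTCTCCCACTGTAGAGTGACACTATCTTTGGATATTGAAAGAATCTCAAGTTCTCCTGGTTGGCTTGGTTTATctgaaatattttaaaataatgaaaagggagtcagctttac
FGD5-AS1 exon over FGD5, chr3:14923977-14924098, minus strand: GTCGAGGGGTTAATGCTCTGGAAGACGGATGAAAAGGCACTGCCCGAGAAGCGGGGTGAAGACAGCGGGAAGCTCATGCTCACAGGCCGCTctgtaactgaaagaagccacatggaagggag
MUC5B-AS1 exon over MUC5B, chr11:1242489-1242638, minus strand: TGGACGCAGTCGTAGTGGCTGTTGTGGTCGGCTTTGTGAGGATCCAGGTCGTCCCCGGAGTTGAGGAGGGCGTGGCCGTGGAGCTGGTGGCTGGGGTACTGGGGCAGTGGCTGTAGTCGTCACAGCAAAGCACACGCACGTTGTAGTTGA

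In FLG-AS1, 110 of the 150 bases shown lie opposite to FLG coding sequence, and in MUC5B-AS1 all 150 do. A read from such a stretch belongs to the antisense gene or to the partner only by its strand. The strand setting of the counting is not given in the sources used here, so reads of overlapping genes cannot be told apart from the table alone. For this reason counts of the partner, and for the most counted members also the number of shared exonic bases, are given beside the antisense genes described at length.

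The 4 libraries held 33009118 and 32206655 counts (Ctrl) and 35180221 and 36301574 counts (shSTAU1), over all genes. The members held 8601 and 8896 of these counts in Ctrl and 7809 and 7458 in shSTAU1. As CPM, counts scaled to the total of the library, this was 260.6 and 276.2 in Ctrl and 222.0 and 205.4 in shSTAU1, so both shSTAU1 libraries lay below both Ctrl libraries. No member was at 0 in any library, but the median member had only 23 to 32 counts per library, which limits the precision for most members.

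Knockdown was checked first on the target itself. STAU1 (ENSG00000124214) had 8362 and 8218 counts in Ctrl and 1449 and 1467 counts in shSTAU1. In CPM after edgeR's TMM scaling, this was 249.8 ± 1.65 in Ctrl and 41.6 ± 0.078 in shSTAU1 (SD, n = 2 each). The log2 fold change of shSTAU1 against Ctrl was -2.59 (SE, the standard error, 0.13, with an adjusted p of 0.00103 in the quasi-likelihood test of edgeR).

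Across the table, 14303 genes passed edgeR's filter on low counts and were tested together, with Benjamini-Hochberg adjustment over all of them. The filter asked for about 10 counts, here 0.293 CPM, in 2 libraries. It kept 120 of the 121 members, and only TFAP2A-AS1 (18, 7, 9 and 9 counts) was left out. Of the 120, 85 were over the filter's level in all 4 libraries, 19 only in both Ctrl libraries and 9 only in both shSTAU1 libraries. These 28 passed through the group in which they were high. In 8 of the 19, PCGF3-AS1 among them, and in 1 of the 9, KLRK1-AS1, no library of the other group was over the level, so their groups had to stand apart.

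Without the replicate number in the model, FLG-AS1 was the only member with an adjusted p under 0.05 in the edgeR test, and it was higher after STAU1 knockdown. Of all tested genes 2.6% (372 of 14303) passed this threshold, and 1.13% passed it as higher, so 1 of 120 members was no more than the background share. At an unadjusted p under 0.05 there were 16 members (13.3%), 3 higher and 13 lower, against 3509 of all genes (24.5%), 1850 higher and 1659 lower. DESeq2 called 5 of 121 members (FLG-AS1 and FGD5-AS1 higher, TTN-AS1, EMC3-AS1 and GNAS-AS1 lower) and 1446 of 24804 tested genes. Of the members, limma-voom called FLG-AS1 alone, and it called 363 of 14303 genes. With the replicate number as a block in edgeR, 15 of 120 members (12.5%) passed, beside 4087 of 14303 genes (28.6%). TTN-AS1, EMC3-AS1 and FGD5-AS1 were among these 15. Calls and adjusted p-values of edgeR given below come from the fit without the block unless stated otherwise. The CPM of the groups did not overlap in 66 of the 120 members, of which 16 were higher and 50 lower in shSTAU1, compared with 56.6% of all tested genes, 4078 higher and 4011 lower. Over the 85 members above the filter's level in all 4 libraries it was 48 (56.5%), 11 higher and 37 lower, beside 57.1% of the 12834 such genes, 3847 higher and 3487 lower.

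FLG-AS1 (ENSG00000237975) spans chromosome 1 from 152168125 to 152445456 on the plus strand and passes the whole of FLG, the gene of filaggrin, which bundles keratin filaments in the outer epidermis. It had 83 and 62 counts in Ctrl and 263 and 267 counts in shSTAU1. In CPM this was 2.18 ± 0.41 in Ctrl and 7.56 ± 0.0005 in shSTAU1 (SD, n = 2 each). The groups did not overlap, and the shSTAU1 libraries lay close together. The level was 3.46-fold higher after knockdown, with a log2 fold change of 1.79 (SE 0.28, adjusted p = 0.0357 by edgeR). The rise was 1.61 on the log2 scale without Ctrl replicate 2, where the adjusted p was 0.0647, and the adjusted p was 0.0988 when no filter on low counts was used, out of a range from 3.7e-09 to 0.0988 over the alternatives run. Its partner FLG had 1548 and 1767 counts in Ctrl and 1197 and 847 in shSTAU1, a log2 fold change of -0.78 (SE 0.20) that did not pass the threshold (adjusted p = 0.0765 by edgeR). The antisense RNA was thus higher in the libraries in which the partner had its lower counts. FLG-AS1 shares 704 bases, 9.15% of its exons, with FLG.

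**Figure D1:**
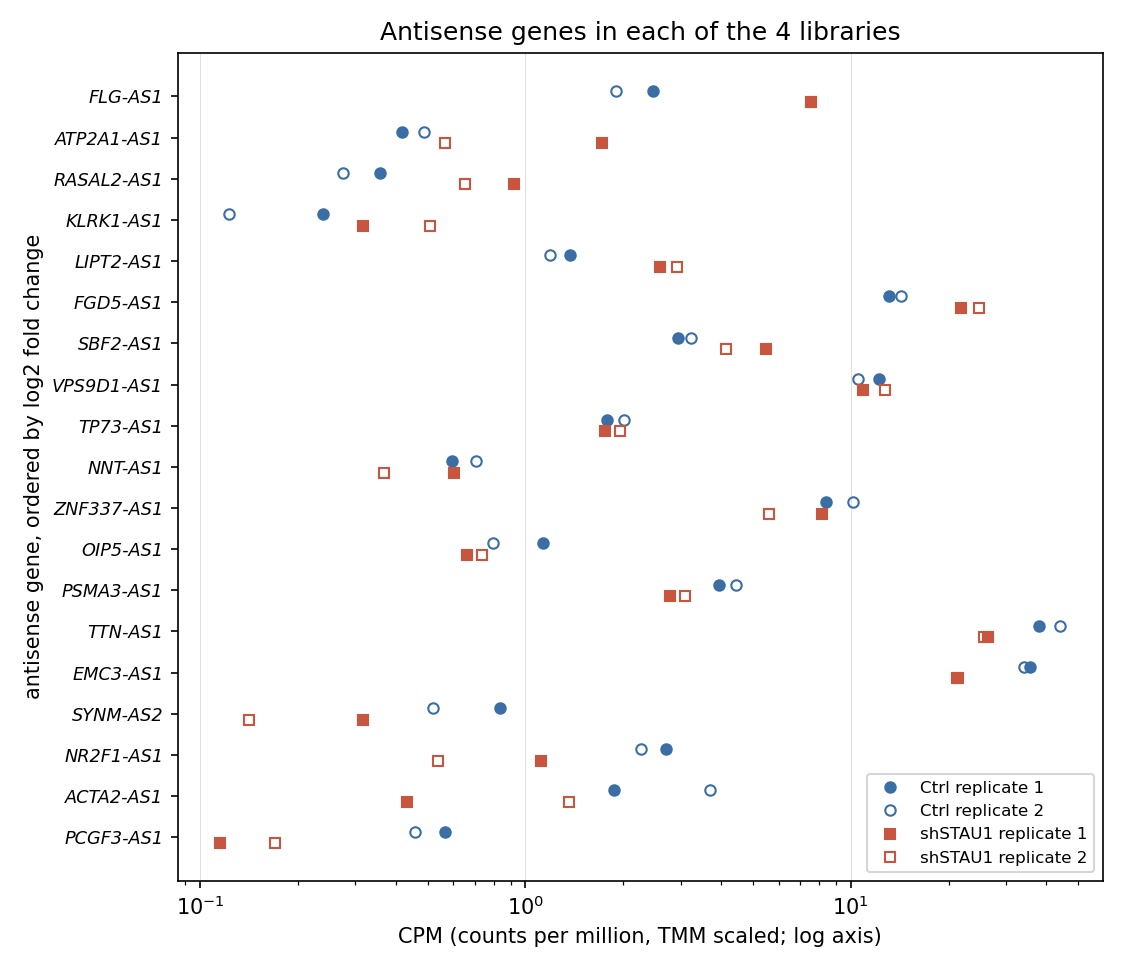
CPM of the named antisense genes (log axis) in each of the 4 libraries, with circles for Ctrl and squares for shSTAU1, filled for replicate 1 and open for replicate 2, ordered by log2 fold change. FLG-AS1 at the top has its shSTAU1 libraries at 7.56 CPM against 2.47 and 1.89 CPM in Ctrl, and PCGF3-AS1 at the bottom lies below 1 CPM in all libraries.

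The 5 most counted members carried 41.45% of the 32764 counts of all members. TTN-AS1 (ENSG00000237298, chromosome 2 from 178521183 to 178779963, plus strand) runs through TTN, the gene of the giant sarcomere protein titin. It had 1280 and 1446 counts in Ctrl and 919 and 905 in shSTAU1, with both shSTAU1 libraries below both Ctrl libraries. The log2 fold change was -0.66 (SE 0.15), and it missed the threshold (adjusted p = 0.0654 by edgeR). TTN itself had 38 and 37 counts in Ctrl and 22 and 20 in shSTAU1, although 55.1% of the TTN-AS1 exons lie over TTN exons. Per kb of exons, TTN-AS1 stood at 1.62 CPM and TTN at 0.0073 CPM over the 4 libraries, so the counts on TTN-AS1 were not matched by a comparable level of titin mRNA.

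EMC3-AS1 (ENSG00000180385, chromosome 3 from 9986893 to 10006990, plus strand) had 1198 and 1114 counts in Ctrl and 737 and 758 in shSTAU1. Its log2 fold change of -0.71 (SE 0.15) was just short of the threshold (adjusted p = 0.0552 by edgeR). Its partner EMC3, a subunit of the endoplasmic reticulum membrane protein complex, had 1693 and 1521 counts in Ctrl and 1895 and 2262 in shSTAU1, and the pair shares 228 exonic bases. The log2 fold change of EMC3 was 0.29 (SE 0.15, adjusted p = 0.268 by edgeR). GENCODE 29 types EMC3-AS1 as a transcribed pseudogene, so reads may be shared with a related gene and its counts are uncertain.

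FGD5-AS1 (ENSG00000225733, chromosome 3 from 14920347 to 14948424, minus strand) had 442 and 467 counts in Ctrl and 760 and 874 in shSTAU1. The groups did not overlap and the log2 fold change was 0.76 (SE 0.18, adjusted p = 0.0636 by edgeR). FGD5, an exchange factor for small GTPases best known in endothelial cells, had no count in any of the 4 libraries and shares 176 exonic bases with it. The neighbour NR2C2, a nuclear receptor whose start lies 840 bases from that of FGD5-AS1 on the opposite strand, was named after its values were seen. NR2C2 had 1414 and 1453 counts in Ctrl and 1154 and 1224 in shSTAU1, a log2 fold change of -0.35 (SE 0.14, adjusted p = 0.182 by edgeR).

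VPS9D1-AS1 and ZNF337-AS1 completed the 5 most counted members. VPS9D1-AS1 (ENSG00000261373) had 412 and 344 counts in Ctrl and 379 and 449 in shSTAU1, and the groups overlapped. VPS9D1, with which it shares 518 exonic bases, had 26, 19, 17 and 13. ZNF337-AS1 (ENSG00000213742) had 283 and 332 counts in Ctrl and 285 and 198 in shSTAU1, and its groups stood apart in CPM only narrowly, at 8.42 and 10.1 in Ctrl and 8.19 and 5.60 in shSTAU1. It shares 2823 exonic bases with ZNF337, which had 2370 and 1923 counts in Ctrl and 1551 and 1289 in shSTAU1. Neither antisense gene passed the threshold (edgeR log2 fold changes of 0.05, SE 0.21, and -0.43, SE 0.26). The direction of VPS9D1-AS1 changed with library size scaling.

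Among members whose groups did not overlap, the 5 largest rises were those of FLG-AS1, ATP2A1-AS1, RASAL2-AS1, KLRK1-AS1 and LIPT2-AS1. Apart from FLG-AS1, none passed the threshold. LIPT2-AS1 (ENSG00000254837) lies on chromosome 11 from 74493366 to 74498533 and starts 367 bases from LIPT2, which encodes an enzyme of protein lipoylation. It had 46 and 39 counts in Ctrl and 90 and 103 in shSTAU1, a log2 fold change of 1.10 (SE 0.36, adjusted p = 0.117 by edgeR), while LIPT2 had 20, 28, 25 and 24 counts in the same order of libraries. RASAL2-AS1 (ENSG00000224687) starts 157 bases from RASAL2, the gene of a RAS GTPase-activating protein, and shares no exonic base with it. It had 12 and 9 counts in Ctrl and 32 and 23 in shSTAU1 (log2 fold change 1.30, SE 0.57, adjusted p = 0.212 by edgeR). RASAL2 had 3964, 4344, 5002 and 4708 counts. RASAL2-AS1 was over the filter's level in both shSTAU1 libraries but in only 1 Ctrl library. The high value of ATP2A1-AS1, opposite to a sarcoplasmic reticulum calcium pump gene, rested on 1 library, with 14 and 16 counts in Ctrl and 60 and 20 in shSTAU1. Its log2 fold change of 1.33 was 0.32 without shSTAU1 replicate 1. KLRK1-AS1, which was tested only because of its shSTAU1 counts, had 8 and 4 counts in Ctrl and 11 and 18 in shSTAU1, and KLRK1, the gene of a receptor of natural killer cells, had none in any library.

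The largest falls by the same measure included those of PCGF3-AS1, ACTA2-AS1, NR2F1-AS1 and SYNM-AS2, and none of these passed the threshold. PCGF3-AS1, opposite to the gene of a Polycomb complex subunit, had 19 and 15 counts in Ctrl and 4 and 6 in shSTAU1. It was tested only because of its Ctrl counts, and the difference is one of few reads, beside 611, 453, 438 and 446 counts of PCGF3.

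ACTA2-AS1, opposite to the smooth muscle actin gene, had 63 and 121 counts in Ctrl and 15 and 48 in shSTAU1, and its log2 fold change of -1.63 (SE 0.60) ranged from -2.70 to -1.03 when a library was left out. NR2F1-AS1, opposite to the gene of the nuclear receptor COUP-TFI, had 91 and 74 counts in Ctrl and 39 and 19 in shSTAU1 (log2 fold change -1.58, SE 0.47, adjusted p = 0.097 by edgeR). SYNM-AS2, over the gene of the intermediate filament protein synemin, had 28 and 17 counts in Ctrl and 11 and 5 in shSTAU1. It was over the filter's level in both Ctrl libraries but in only 1 shSTAU1 library. ACTA2 had 964, 685, 877 and 681 counts in the 4 libraries, NR2F1 had 198, 133, 92 and 90, and SYNM had 782, 1111, 447 and 786.

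Markers of cell types were read from lists. Of 9 fibroblast markers, 4 (COL3A1, DCN, LUM and THY1) had at most 3 counts in every library, and the list was led by VIM. The summed level of the list was 63.8 and 69.7 CPM in Ctrl and 22.8 and 32.65 CPM in shSTAU1, and VIM and COL1A1 were called lower. COL1A2 went the other way, with 40 and 55 counts in Ctrl and 75 and 128 in shSTAU1, and did not pass the threshold (log2 fold change 1.01, adjusted p = 0.185 by edgeR). The part of this list in the values of the antisense genes was not tested. The 11 markers of squamous epithelium were all expressed and were led by KRT5, with a summed level of 9706 and 8755 CPM in Ctrl and 12640 and 9863 CPM in shSTAU1. Of the 4 endothelial markers 2 (PECAM1 and KDR), and of the 4 leukocyte markers 3, had at most 3 counts in every library. In bulk RNA, fewer cells of a type and less RNA per cell cannot be told apart.

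Some antisense RNAs known from cancer work were looked up from a list. The table holds 27 of them, of which 7 were members, 12 had counts but were not members and 8 were at 0 in all libraries. FGD5-AS1 and TTN-AS1 are described above. SBF2-AS1, opposite to a myotubularin-related gene, had 99 and 106 counts in Ctrl and 191 and 146 in shSTAU1 (log2 fold change 0.64, SE 0.29, adjusted p = 0.226 by edgeR), beside 7779, 5903, 9313 and 6737 counts of SBF2. PSMA3-AS1, next to a proteasome subunit gene, had 132 and 145 counts in Ctrl and 97 and 109 in shSTAU1 (log2 fold change -0.51, SE 0.28, adjusted p = 0.308 by edgeR), beside 5080, 4988, 5874 and 7826 counts of PSMA3. The groups of both stood apart, but the differences did not pass the threshold. TP73-AS1 had 60, 66, 61 and 69 counts, OIP5-AS1 had 38, 26, 23 and 26, and NNT-AS1 had 20, 23, 21 and 13. The listed genes AFAP1-AS1, DDX11-AS1 and GATA3-AS1 were among those at 0, and BACE1-AS had 56, 78, 53 and 47 counts but was no member because its symbol has no number.

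The members nearest to the count minimum show how thin the data are there. ZNF22-AS1, just inside, had 5, 13, 11 and 11 counts, and KLRK1-AS1 had a sum of 41. Just outside, with a sum of 39, stood CDKN2B-AS1 (16, 6, 10 and 7 counts), YEATS2-AS1 (0, 9, 13 and 17 counts), RAB33B-AS1, FBXL19-AS1 and PXN-AS1. Summed counts ran from 40 to 4550 with a median of 111, and 54 members had under 100.

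As a group, the members had mostly negative log2 fold changes. Of the 120 tested members, 80 had a negative log2 fold change and 40 a positive one, with a median of -0.36, beside a median of 0.01 over all 14303 genes, of which 49.58% were negative. This tally includes the 28 members that passed the filter through 1 group only. Over the 85 members above the filter's level in all 4 libraries, 58 were negative and 27 positive with a median of -0.34, beside a median of 0.02 and 48.2% negative over the 12834 genes at that level in all 4 libraries. The median of all tested members was -0.22 without Ctrl replicate 2 and -0.49 without shSTAU1 replicate 1. Other noncoding classes showed the same sign. The median was -0.36 for 52 LINC genes (43 negative), -0.37 for 27 divergent transcripts with a -DT symbol (19 negative), -0.45 for 15 small nucleolar RNA host genes (13 negative) and -0.50 for 317 other long noncoding genes (253 negative). In these classes 0, 0, 0 and 3 genes were called, beside 2.6% (372 of 14303) of all tested genes. With so few tested genes, the 0 calls were not read as a result about a class. The 1354 coding genes in the middle CPM range of the members, from 0.468 to 1.75 CPM, had a median of -0.15 with 783 negative, and 4 of them were called. The 35 members without opposite-strand coding bases had a median of -0.38 and the 86 with such bases -0.27, of which 35 and 85 were tested.

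**Figure D2:**
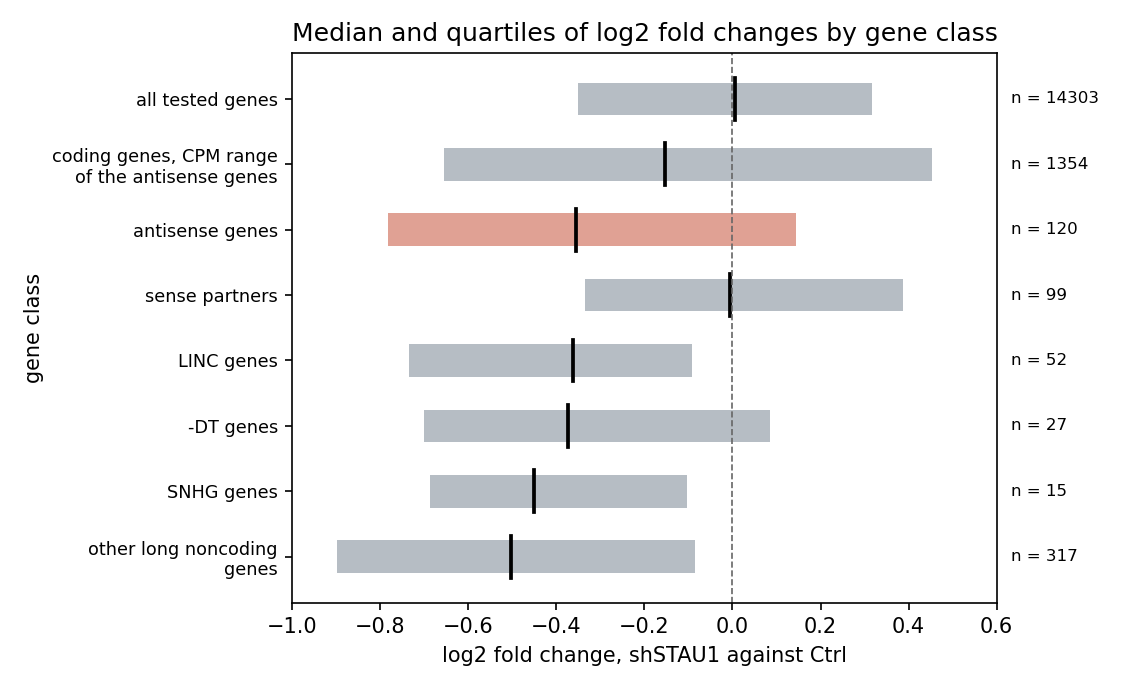
Log2 fold changes of shSTAU1 against Ctrl by gene class, with a bar from the lower to the upper quartile, a black line at the median and the number of tested genes at the right. The medians of all noncoding classes lie left of 0, that of the antisense genes at -0.36, while those of all tested genes and of the sense partners lie at 0.01 and -0.01.

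Sense partners were compared with the antisense genes next. The 121 members have 120 partners, because ADAMTSL4-AS1 and ADAMTSL4-AS2 share ADAMTSL4. Partners were the more abundant gene in most pairs. Per kb of exons, the median level over the 4 libraries was 0.279 CPM for the members and 2.69 CPM for the partners, and the median member reached 9.5% of its partner where the partner had counts. In 36 of the 121 pairs the antisense gene was nonetheless the more abundant, and 9 partners had no count in any library (FGD5, MRAP, DLGAP1, RNF32, ZSCAN16, IDI2, CD27, CKMT2 and KLRK1).

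The shared bases give an expected number of partner reads to set beside the counts of the antisense gene. From the mean count of the partner and the share of its exonic length that is shared, at least 10 partner reads per library would be placed over the shared bases in 67 pairs if the reads were spread evenly. In 45 of these the antisense gene had fewer counts than that, and in 11 it had less than 10% of it. TUBA1B-AS1, GNAS-AS1 and MUC5B-AS1 are given as examples and were chosen after their values were seen. TUBA1B-AS1, with 80.2% of its exons over exons of the alpha-tubulin gene TUBA1B, had 8, 27, 6 and 22 counts, a mean of 15.8, where about 32066 reads of TUBA1B would lie over the shared bases. GNAS-AS1 had 186.5 where 3981 would lie. In such pairs the antisense gene had far fewer counts than an even spread of partner reads would place over the shared bases. An even spread is an assumption, and how reads over shared bases were assigned was not tested. The reverse case was MUC5B-AS1, all of whose 434 exonic bases lie over the mucin gene MUC5B. It had 62 and 14 counts in Ctrl and 22 and 13 in shSTAU1, while MUC5B had 0, 3, 0 and 0.

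**Figure D3:**
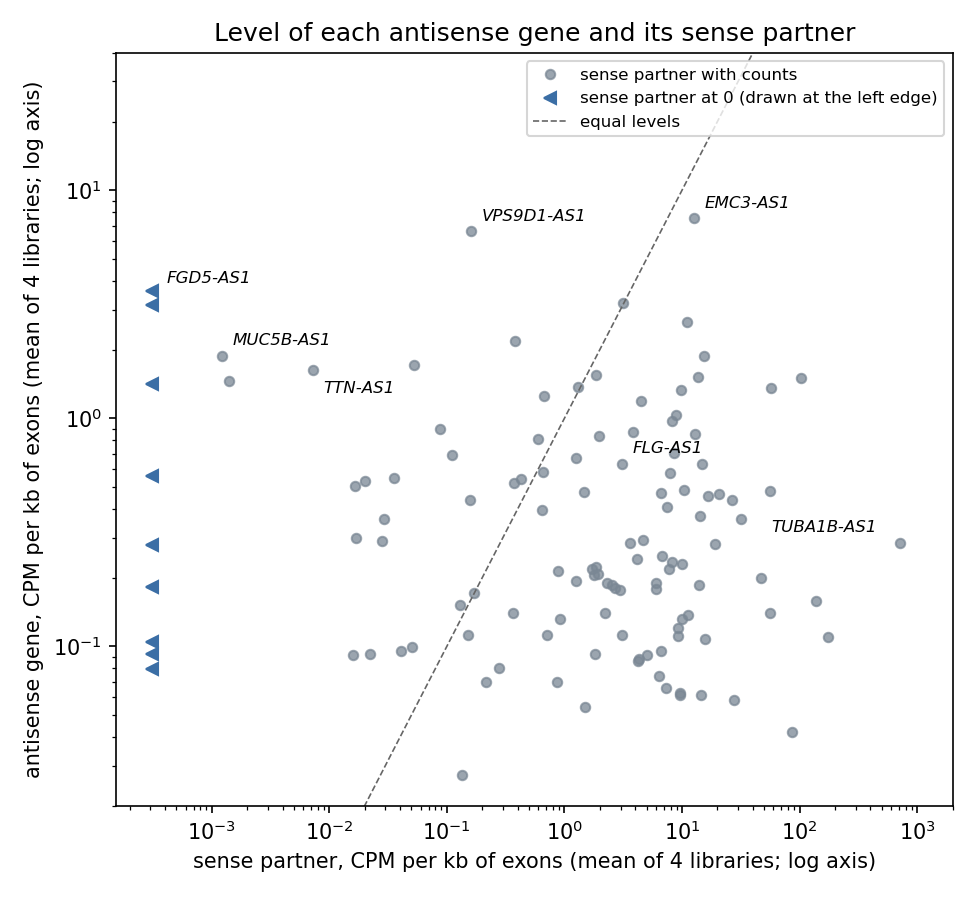
Level of each of the 121 antisense genes against that of its sense partner, both in CPM per kb of exons as the mean of the 4 libraries on log axes, with 9 partners at 0 drawn as triangles at the left edge. Most points lie right of the dashed line of equal levels, with TUBA1B-AS1 farthest to the right, and TTN-AS1, MUC5B-AS1 and VPS9D1-AS1 lie left of it.

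Of the 99 partners that were tested, 5 passed the threshold (5.05%, beside 2.6% of all tested genes), and their antisense genes did not. Of these, 4 are named because of their calls, after their values were seen. ASH1L, a histone methyltransferase gene, had 8420 and 8677 counts in Ctrl and 5285 and 5561 in shSTAU1, and ASH1L-AS1 had 95, 80, 79 and 54. ASH1L and ATP2C2, a calcium pump gene of the secretory pathway, were lower, with log2 fold changes of -0.74 and -0.82 (adjusted p = 0.0358 and 0.037 from edgeR). ATP2C2-AS1, with 64.28% of its exons over exons of ATP2C2, had 113, 178, 115 and 79 counts. DGUOK, which phosphorylates deoxyguanosine in mitochondria, was higher, with 1817 and 1978 counts in Ctrl and 3696 and 4036 in shSTAU1 (log2 fold change 0.95, adjusted p = 0.0328 by edgeR), and DGUOK-AS1 had 33, 30, 54 and 44 counts. LAMTOR5, a subunit of the Ragulator complex, was higher too (log2 fold change 0.84, adjusted p = 0.0424 by edgeR), while LAMTOR5-AS1 had 19, 28, 22 and 22 counts. The edgeR log2 fold changes were -0.47 for ASH1L-AS1, -0.67 for ATP2C2-AS1, 0.56 for DGUOK-AS1 and -0.18 for LAMTOR5-AS1. Of these, only LAMTOR5-AS1 had the sign opposite to that of its partner.

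The balance of antisense to sense RNA was tested within each library, as the log2 ratio of the counts of the antisense gene to those of the partner after 1 count was added to each. Library size cancels in this ratio. It was fitted with limma over 2779 pairs of neighbouring tested genes on opposite strands, so that the members were judged against all such pairs. Of these pairs 0% were called at an adjusted p under 0.05, and none of the 99 member pairs was. At an unadjusted p under 0.05 there were 24 member pairs (24.24%, 6 with a higher and 18 with a lower ratio in shSTAU1) and 495 of all pairs (17.81%). With a limma fit that lets the spread depend on the count, added after the data were seen, 23 pairs were called, among them FLG-AS1 with FLG and GNAS-AS1 with GNAS. The ratios of the groups did not overlap in 46 member pairs (46.46%), compared with 52.9% of all pairs.

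The FLG-AS1 to FLG ratio had the smallest p of the member pairs. On the log2 scale it was -4.21 and -4.81 in Ctrl and -2.18 and -1.66 in shSTAU1. The groups lay far apart, and the mean difference was 2.59 (SE 0.36, adjusted p = 0.182 from limma). Per kb of exons FLG-AS1 stood at 8.89% and 5.81% of FLG in Ctrl and at 36.4% and 52.2% in shSTAU1.

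GNAS-AS1 and SH3BP5-AS1 came next and moved the other way, and they are named after their values were seen. GNAS-AS1 (ENSG00000235590, chromosome 20 from 58818919 to 58850903, minus strand) lies in the imprinted locus of the stimulatory G protein alpha subunit. It had 241 and 245 counts in Ctrl and 151 and 109 in shSTAU1, while GNAS had 40117 and 31241 in Ctrl and 68155 and 48681 in shSTAU1. The log2 ratio was -7.37 and -6.99 in Ctrl and -8.81 and -8.79 in shSTAU1, a difference of -1.62 (SE 0.27, adjusted p = 0.182 from limma). SH3BP5-AS1 had 150 and 151 counts in Ctrl and 87 and 60 in shSTAU1, and SH3BP5 had 65 and 71 in Ctrl and 123 and 118 in shSTAU1. The log2 ratio of this pair was 1.19 and 1.08 in Ctrl and -0.49 and -0.96 in shSTAU1, a difference of -1.87 (SE 0.29, adjusted p = 0.182 from limma).

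**Figure D4:**
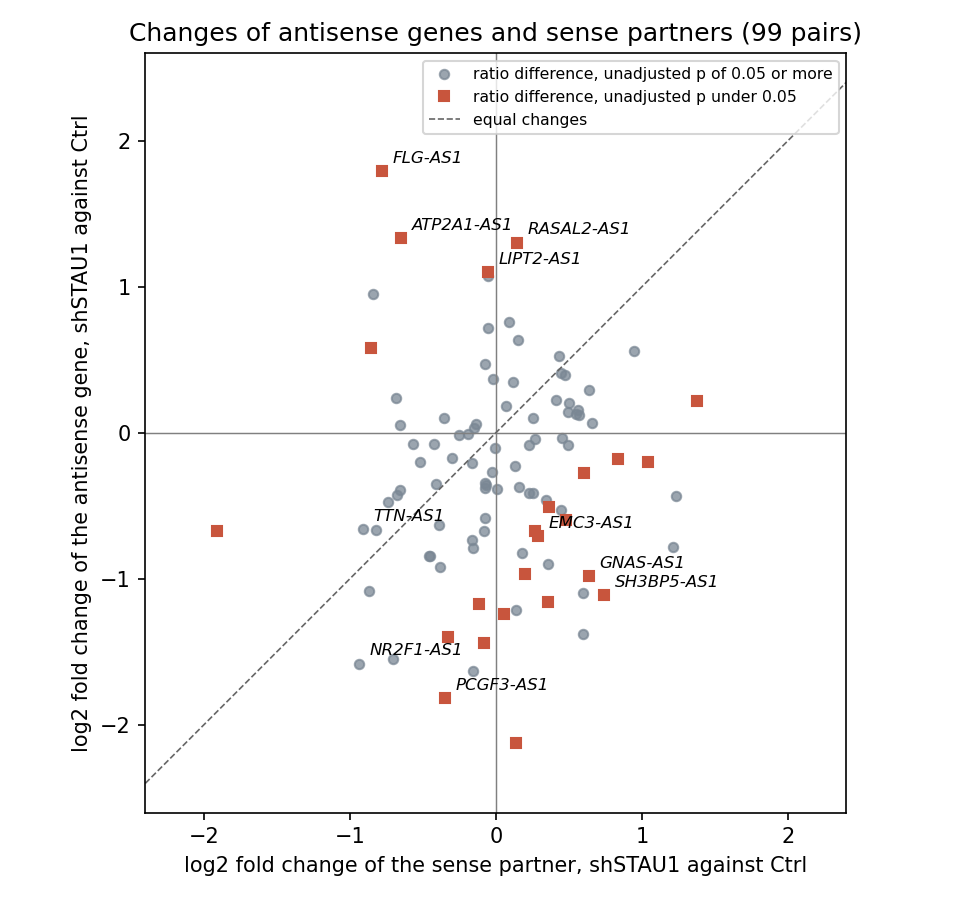
Log2 fold change of the antisense gene (vertical axis) against that of its sense partner (horizontal axis) for 99 pairs, with squares for pairs whose ratio differed at an unadjusted p under 0.05 and circles for the others. FLG-AS1 lies at the upper left with 1.79 against -0.78, GNAS-AS1 and SH3BP5-AS1 lie at the lower right, and NR2F1-AS1 lies near the dashed line of equal changes.

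EMC3-AS1 and PSMA3-AS1 had lower ratios in both shSTAU1 libraries. The log2 ratio of EMC3-AS1 to EMC3 was -0.50 and -0.45 in Ctrl and -1.36 and -1.58 in shSTAU1 (difference -0.99, SE 0.25, adjusted p = 0.221 from limma). That of PSMA3-AS1 to PSMA3 was -5.26 and -5.09 in Ctrl and -5.91 and -6.15 in shSTAU1 (difference -0.85, SE 0.26, adjusted p = 0.236 from limma). The ratio was higher in both shSTAU1 libraries for LIPT2-AS1 (difference 1.12, SE 0.34) and for RASAL2-AS1 (difference 1.08, SE 0.32), with adjusted p of 0.236 and 0.232 from limma. For TTN-AS1 the difference was 0.23 (SE 0.25) and for NR2F1-AS1 -0.73 (SE 0.41), and in both pairs the antisense gene and its partner had lower CPM in both shSTAU1 libraries. Neither ratio difference passed the threshold. Over the 99 pairs the median difference was -0.34. The median log2 fold change was -0.27 for these antisense genes and 0.01 for their partners.

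**Figure D5:**
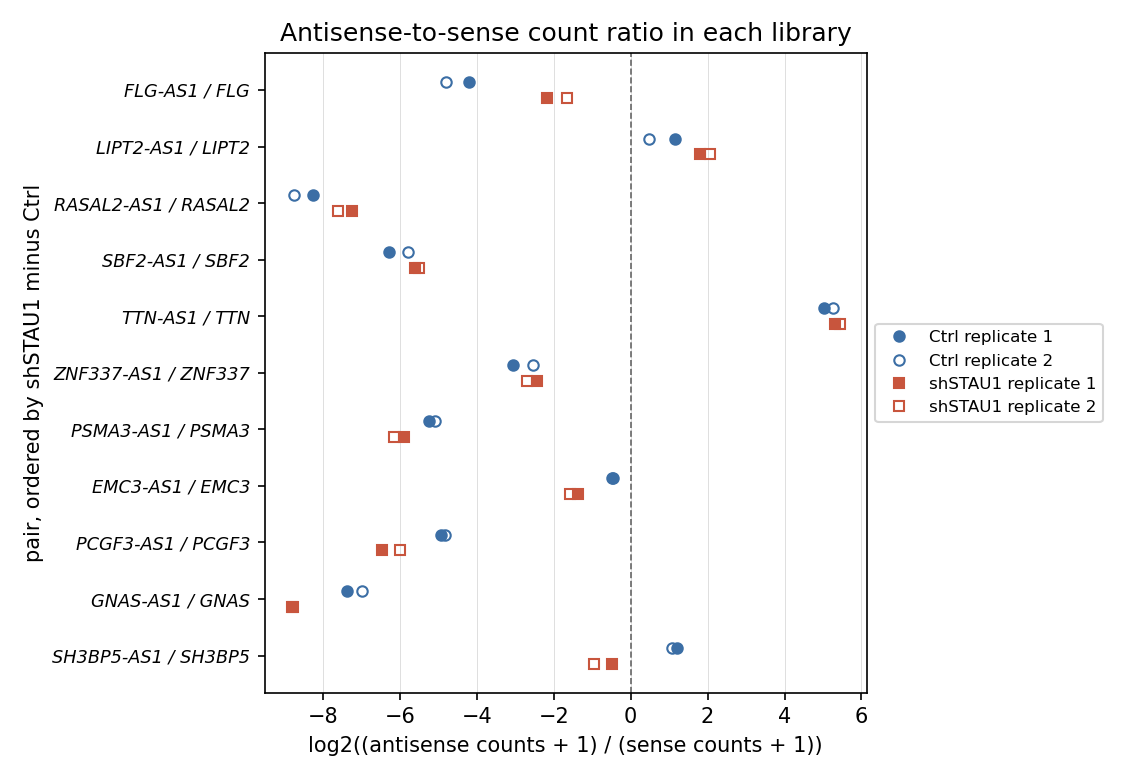
Log2 ratio of antisense to sense counts, with 1 count added to each, in every library for 11 pairs, with circles for Ctrl, squares for shSTAU1, filled symbols for replicate 1 and open symbols for replicate 2. The FLG-AS1 pair moves from -4.21 and -4.81 to -2.18 and -1.66, while the ratios of ZNF337-AS1 overlap between the groups.

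Many antisense RNAs share a promoter region with a coding gene other than the gene they are named after. A coding gene on the opposite strand started within 1000 bases of the start of 50 members, and in 25 of these it was the partner. In the 49 cases with both genes tested, the median log2 fold change was -0.20 for the antisense genes and -0.05 for the coding genes. Of these coding genes only ASH1L passed the threshold. MCM3AP-AS1, which starts 393 bases from LSS, an enzyme gene of cholesterol synthesis, had 81 and 79 counts in Ctrl and 31 and 33 in shSTAU1 (log2 fold change -1.40, SE 0.38, adjusted p = 0.0819 by edgeR), beside a log2 fold change of -0.54 for LSS (adjusted p = 0.225). It was named after its values were seen.

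Genes that set the level or the fate of antisense RNA were read from lists, and their calls stand beside the 2.6% of all tested genes that were called. Of 32 genes of the nuclear exosome, its adaptors and related RNA turnover, 1 passed the threshold, EXOSC7, a ring subunit of the exosome. It had 747 and 750 counts in Ctrl and 1327 and 1359 in shSTAU1, a log2 fold change of 0.76 (SE 0.15, adjusted p = 0.0453 by edgeR). The median of the list was 0.16, with 25 of the 32 positive. The catalytic subunits EXOSC10 and DIS3 had log2 fold changes of -0.03 and 0.15, and the helicase MTREX, which feeds the exosome, had 0.20. Of 18 tested genes for binding or editing of double-stranded RNA, with a median log2 fold change of 0.04, 1 passed the threshold. This was IFIH1, the gene of the double-stranded RNA sensor MDA5, with 394 and 362 counts in Ctrl and 144 and 169 in shSTAU1 (log2 fold change -1.35, SE 0.22, adjusted p = 0.0358 by edgeR). The editing enzyme ADAR had a log2 fold change of 0.11 (SE 0.12, adjusted p = 0.615 by edgeR).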

How the data were processed

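RNA was sequenced from 2 Ctrl and 2 shSTAU1 libraries made with the TruSeq RNA Exome kit. The authors deposited a table of whole-number read counts per gene without normalization, with a column for each library. The submitters' processing notes name hg38 and Partek. The aligner, the counting step, its strand setting and the annotation release are not given in the sources used here. Gene identifiers were mapped to symbols with a name table (60295 of 67008 rows matched, 42005 with a symbol of their own), and gene types, exons, positions and sequences were taken from GENCODE 29 on GRCh38, which covers 99.868% of the counts. The 45 entries for second copies of pseudoautosomal genes held 0 counts. Symbols of the annotation itself gave 93 members, 87 of them shared. KRT10-AS1 and KCNJ5-AS1 are typed as coding there and were left out. The sense partner was the gene whose symbol precedes the suffix.

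Counts were filtered with filterByExpr, scaled by TMM and compared with the quasi-likelihood test of edgeR 4.0.16 in R 4.3.3, with Benjamini-Hochberg adjustment over all 14303 tested genes and a threshold of 0.05. The antisense-to-sense ratio was fitted with limma 3.58.1. Alternatives were DESeq2 1.42.0, limma-voom, library size scaling, no filter, the replicate number as a block, other thresholds, other count minimums and added counts, leaving out each library, and, added after the data were seen, a correction of each library for length and GC bias and a count trend in the ratio fit. The fits were tested on simulated data. In a design of 2 against 2 the smallest two-sided p of an exact permutation test is 0.333. Replicate libraries were not copies of each other, with a chi-square over its degrees of freedom of 2.76 between the Ctrl and 4.51 between the shSTAU1 libraries over the members.

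The members and lists were chosen with earlier results of these data known. Named genes were members past the threshold, the 5 largest rises and 5 largest falls with groups apart, the 5 most abundant members, a list of antisense RNAs known from cancer work, the partners of all these and STAU1, and other names are marked as chosen after their values were seen. Some genes that these rules cover are not reported here. Lists of RNA turnover genes, double-stranded RNA binding and editing genes, other noncoding classes and cell type markers are reported once. Figures were drawn with matplotlib 3.10.9.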

Additional observations from a re-analysis of the deposited data

How the results depend on the processing

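The number of genes called was 372 in the whole table and 1 among the antisense genes. It was 11 and 0 without a filter on low counts and 1446 and 5 with DESeq2, where 24804 genes were tested in each case. With library size scaling it was 404 and 2, and at an adjusted p under 0.10 it was 1585 and 8. It was 2098 and 16 when an unadjusted p under 0.05 and a change of 1.5 times were asked for. Correcting for length and GC content, an alternative added with the data seen, gave 184 and 1. Leaving out each library in turn gave 214 to 2625 genes and 0 to 7 antisense genes. With 1 library left in a group, that library is assumed to vary like the others. FLG-AS1 was lost without Ctrl replicate 2 and without the filter. None of the 7 tested members without opposite-strand exon overlap was called (0). The cause of these differences was not tested.

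Adding the replicate number to the model as a block gave 4087 genes (28.6%) and 15 antisense genes (12.5%), and 3461 and 16 with the length and GC correction added. Of the 15, 3 were higher (FLG-AS1, FGD5-AS1 and LIPT2-AS1) and 12 lower, among them EMC3-AS1, TTN-AS1, ACTA2-AS1, GNAS-AS1, NR2F1-AS1, SH3BP5-AS1, MCM3AP-AS1, THUMPD3-AS1, RNF32-AS1 and SCN1A-AS1. The edgeR adjusted p with the block was 3.4e-05 for EMC3-AS1, 5.6e-05 for TTN-AS1 and 9.1e-05 for FGD5-AS1. The labels do not say that the number marks a batch. Deviations from the group means correlated at r = 0.27 between samples of the same number over all tested genes and at 0.25 over the members, across genes, which are not independent replicates. The STAU1 log2 fold change kept its direction and its call in all alternatives run, from -2.64 to -2.58.

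The rule gave 67 members at a minimum of 100 counts and 274 at 10. For the antisense-to-sense ratio, 1 pair was called with 0.5 added counts, and 23 with the count trend, 2 of them member pairs. In the other ratio alternatives 0 pairs were called.

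Of 569 values of named genes under an alternative, 504 kept their direction and side of the threshold, 46 passed it newly, 2 no longer passed it and 17 changed sign. VPS9D1-AS1 had a log2 fold change of -0.0015 with library size scaling, -0.088 after the length and GC correction and -0.093 with the replicate block added to it, and TP73-AS1 had 0.093 and 0.0897 in the last of these. With libraries left out, values ran from -0.083 to 0.16 for VPS9D1-AS1, from -0.14 to 0.054 for TP73-AS1, from -0.31 to 0.23 for LIPT2, from -0.37 to 0.072 for ACTA2, from -0.11 to 0.36 for SBF2 and from -0.25 to 0.75 for OIP5. The ratio difference ran from -1.68 to 0.13 for SYNM-AS2 and from -0.038 to 0.49 for ZNF337-AS1. None of these passed a threshold. A median of 23 to 32 counts per library limits what can be detected for most members.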
